A study of Mus musculus with 8 samples.

Results

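Ly6C-high monocytes, the classical monocytes, of bone marrow from Nr4a1 KO mice were compared with the same cells of wild-type mice by RNA sequencing. The comparison used 4 of the 8 libraries of the series, 2 labelled Nr4a1 KO and 2 labelled wild type. The other 4 libraries, 2 labelled Irf2 KO and 2 labelled Bcl6 cKO (a conditional knockout), entered the estimate of the spread and served as further reference genotypes. Of 13744 genes, the 12752 with a mean of at least 1 CPM over the 8 libraries were tested. The sources used here do not give the Nr4a1 allele, the Cre driver of the conditional knockout, or the strain, age and sex of the mice. Nothing in the labels says that replicates are from separate mice, and p-values therefore measure only how far these samples spread, which can be technical.

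Nr4a1 (Nur77) is an orphan nuclear receptor that binds DNA as a monomer at the NBRE motif, and it is also an immediate early gene induced by many stimuli. It is known for its need in the generation and survival of Ly6C-low nonclassical monocytes, the patrolling cells that arise from Ly6C-high monocytes. The cells measured here are the stage before that transition.

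Levels are given per gene as log2 CPM (counts per 1000000 reads of a scaled library total, on a log2 scale). Differences are log2 fold changes of the fitted group means with their SE (limma, n = 2 per genotype). A gene is called where its Benjamini-Hochberg adjusted p is under 0.05, and rose or fell is written only of called genes. Each library held 46617756 to 62633123 reads, and 1 CPM stood for 47.9 to 61.8 reads. All 8 markers of classical monocytes fixed for the check were high in the 4 libraries, from 5.29 log2 CPM for Cd14 to 12.33 for Ly6c2. Summed levels of neutrophil genes were 2688 and 2425 CPM in wild type against 3412 and 2703 in Nr4a1 KO, of B cell genes 698 and 790 against 678 and 1039, and of plasmacytoid dendritic cell genes 597 and 520 against 308 and 417. Erythroid genes summed to 37.4 and 37.7 CPM in wild type and to 17.8 and 23.6 in Nr4a1 KO. Among genes of other cells, Cd79a and Blnk (B cells), Hba-a1 (erythroid cells) and Axl (macrophages) fell and Nkg7 (NK cells) rose, and their part in the results was not tested. Those of Cd79a and Axl ended without wild type replicate 2. The other 3 were weaker: Blnk was not called without any 1 library of wild type or Bcl6 cKO or without Nr4a1 KO replicate 1, Hba-a1 not without any 1 library of wild type, Nr4a1 KO or Bcl6 cKO, and Nkg7 not without wild type replicate 1, Nr4a1 KO replicate 2 or any 1 library of the other 2 knockouts. Blnk and Hba-a1 were also not called after centring or the correction for GC content and length described further on. In such bulk samples fewer cells of a type and less RNA per cell cannot be told apart.

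The 2 Nr4a1 KO libraries stood apart from each other in genes of the interferon response. All 39 type I interferon-stimulated genes and all 14 guanylate-binding and immunity-related GTPases were higher in Nr4a1 KO replicate 2 than in replicate 1, by a median of 2.08 and 4.19 on the log2 scale. The same genes were all higher in wild type replicate 2 than in replicate 1 as well, by a median of 0.94 and 0.64. Summed levels of the interferon-stimulated genes were also higher in replicate 2 for Bcl6 cKO (5576 and 6693 CPM) and Irf2 KO (6887 and 8762). Those of the GTPases were for Irf2 KO (1522 and 2195) and not for Bcl6 cKO (578 and 565). These groups are given per library further on, with and without single libraries.

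Nr4a1 itself (ENSMUSG00000023034, GRCm38 chromosome 15, 101254269 to 101274795, plus strand) was read at 1443 and 2004 reads in wild type and at 254 and 378 reads in Nr4a1 KO. Its level was 4.64 and 5.29 log2 CPM in wild type and 2.32 and 2.98 in Nr4a1 KO, without overlap (-2.31 ± 0.27, limma adjusted p = 0.000622). The libraries labelled Irf2 KO held it at 2.59 and 2.52, and the difference between Nr4a1 KO and Irf2 KO was 0.09 ± 0.27 (adjusted p = 0.832), so the level of this gene does not tell these 2 genotypes apart. The libraries labelled Bcl6 cKO held it at 4.49 and 4.56. The sources used here do not say which part of the gene is deleted, and hence what the remaining reads stand for.

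The other targeted genes were close to wild type in Nr4a1 KO. Bcl6, a transcriptional repressor, was at 4.66 and 4.64 log2 CPM in wild type and 4.65 and 4.74 in Nr4a1 KO, a difference of 0.05 ± 0.16 (adjusted p = 0.872). Irf2, a member of the interferon regulatory factors, differed by 0.23 ± 0.14 (adjusted p = 0.298). In the libraries labelled Bcl6 cKO, Bcl6 was at 6.53 and 6.40, above wild type, which goes against the label if the reads come from an intact transcript. Irf2 was at 6.50 and 6.69 in the libraries labelled Irf2 KO, against 7.18 and 7.14 in wild type.

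The change in Nr4a1 KO was mostly downward in the deposited scaling, and large falls outnumbered large rises. Of the genes tested, 502 (3.94%) rose and 1423 (11.2%) fell, 15.1% in all. Counts of the gene lists below are to be read beside these shares. Pseudogenes held 154 of the 502 rises. Of 1537 tested pseudogenes 10% rose and 3.25% fell, against 3.08% and 13.1% of 10307 protein-coding genes. Falls of over 2-fold were called for 733 genes (5.75%) and rises of that size for 78 (0.612%). Falls of over 8-fold were called for 67 genes (0.525%) and rises of that size for 3 (0.0235%), which were Gbp8, H2-Eb1 and Adam19. The calls that no single left-out library of the 8 ended were 62 rises (0.486%) and 756 falls (5.93%). Without wild type replicate 2 there were 120 rises and 945 falls, without wild type replicate 1 239 and 1062, and without Nr4a1 KO replicate 2 273 rises and 1262 falls. Leaving out either library labelled Bcl6 cKO gave 281 rises, and without Irf2 KO replicate 1 there were 334.

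**Figure D1:**
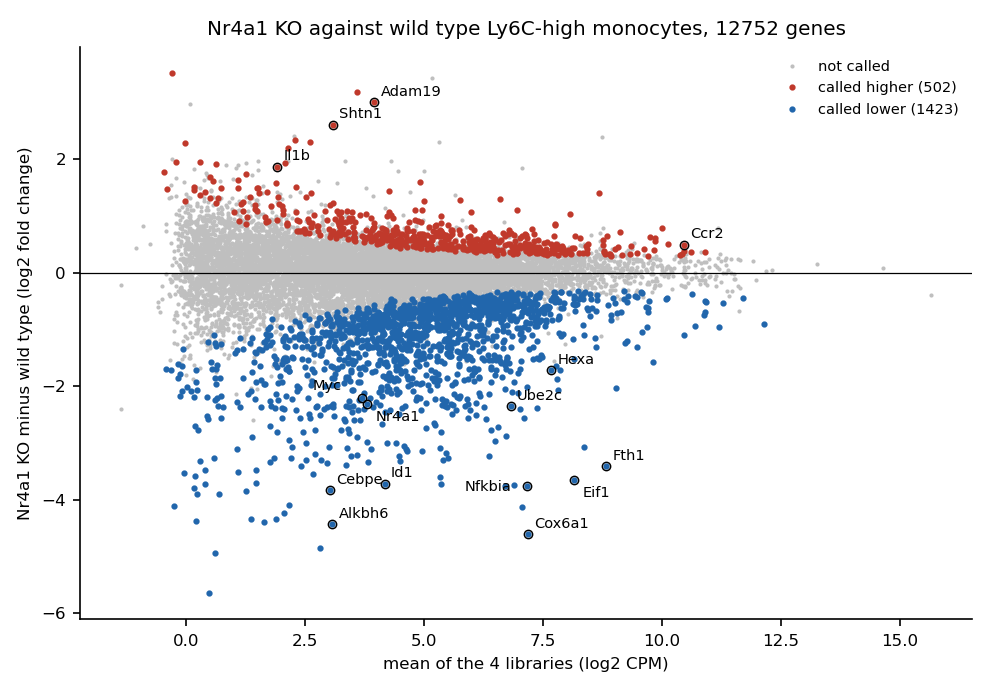
Log2 fold change of Nr4a1 KO against wild type (vertical axis) against the mean of the 4 libraries in log2 CPM (horizontal axis) for 12752 genes, with 502 called higher in red and 1423 called lower in blue. Cox6a1, Nfkbia, Eif1 and Fth1 lie far below the other genes of their level, and Adam19 and Shtn1 lie above.

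The split between rises and falls depended on the scaling. Centring each library on its median moved the median log2 fold change of all genes from 0.01 to 0.14, and the share of calls that were rises went from 26.1% to 50.7%. With quantile normalization it was 47.1%. Rises numbered 1176 (9.22%) and falls 1145 (8.98%) after centring, and 1071 (8.4%) and 1205 (9.45%) after quantile normalization. Falls of over 2-fold numbered 626 (4.91%) after centring, 664 (5.21%) after quantile normalization and 543 (4.26%) when libraries were corrected for the GC content and length of transcripts. In all, 1647 of the 1925 calls (85.6%) kept their call and direction after centring.

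The fold change moved with the GC content of the transcript. Across 12740 genes in these libraries, which are not independent replicates, Spearman's rho was -0.34, against 0.21 for the difference between the 2 wild-type libraries and -0.05 for that between the 2 Nr4a1 KO libraries. In the tenth of genes with the highest GC content (56.95% to 75.9%), 29.28% were called lower and 0.86% higher. In the tenth with the lowest GC content 4.08% were called lower and 7.77% higher. After the correction 1177 of the 1925 calls (61.1%) kept their call and direction, and 592 rises (4.64%) and 973 falls (7.63%) were called. The part of GC content in the single results was not tested, and the text gives where a call did not hold after the correction.

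**Figure D2:**
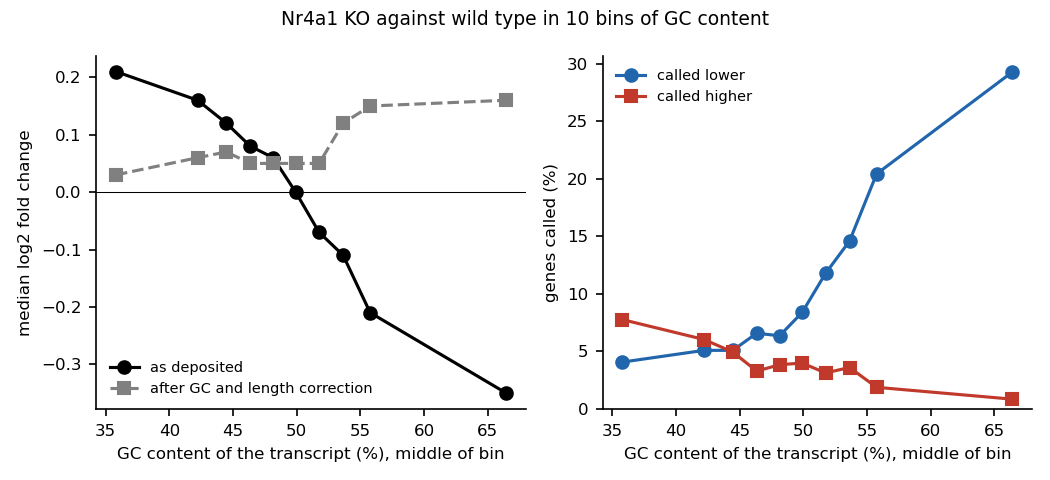
Left, median log2 fold change of Nr4a1 KO against wild type in 10 bins of transcript GC content, as deposited (circles) and after correction for GC content and length (squares). Right, share of genes in each bin called lower (blue) or higher (red) as deposited, where the share called lower goes from 4.08% in the first bin to 29.28% in the last.

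The largest rises included genes of the cell surface and cytoskeleton. Adam19, a membrane metalloprotease (chromosome 11, 46055992 to 46147343), was at 2.25 and 2.65 log2 CPM in wild type and at 5.59 and 5.32 in Nr4a1 KO, an 8.03-fold rise (3.01 ± 0.47, adjusted p = 0.00327). Shtn1, which codes for the actin and neurite protein shootin-1 (chromosome 19, 58973356 to 59076100), went from 2.22 and 1.34 to 4.92 and 3.87 (2.61 ± 0.37, adjusted p = 0.00187). The genotypes did not overlap for either of these 2 genes, which the naming rule required and which was the case for 7242 of all genes (56.8%). Tnfsf13, the cytokine APRIL, rose by 1.41 together with the overlapping antisense gene Tnfsf13os (1.94), and since the use of strand in counting is not given, reads of the 2 genes cannot be told apart. The 12 largest rises that the naming rule selected also held Eps8, an actin regulator (1.10), Fkbp7, a prolyl isomerase of the endoplasmic reticulum (1.34), and Zc2hc1a (1.03). Also among them were genes known only by model numbers. These were the processed pseudogene Gm47021 (1.45), the unprocessed pseudogene Gm43712 (1.08), the miRNA gene Gm26384 (1.07) and Gm2000 (1.03). Shtn1 and Eps8 also rose against wild type in the other 2 knockouts, with values given further on. So did Tnfsf13os (0.94 in Irf2 KO and 1.14 in the libraries labelled Bcl6 cKO) and Gm2000 (0.66 and 0.62). Adam19 (2.68) and Zc2hc1a (0.95) also rose in the libraries labelled Bcl6 cKO only. Tnfsf13 (0.98), Gm43712 (0.94) and Gm26384 (0.70) did so in Irf2 KO only. Of the 12, Gm26384 was not called after the GC and length correction.

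The largest falls were steeper than the largest rises. Cox6a1, a subunit of cytochrome c oxidase (chromosome 5, 115345642 to 115348981), was at 9.32 and 9.64 log2 CPM in wild type and at 4.64 and 5.11 in Nr4a1 KO, a 24.3-fold fall (-4.60 ± 0.24, adjusted p = 1.69e-05). In reads it went from 37064 and 40960 to 1274 and 1659. Cox8a, another subunit of the same enzyme, went from 8.70 and 8.80 to 4.91 and 5.13 (-3.74 ± 0.22, adjusted p = 2.32e-05). Alkbh6, an AlkB family dioxygenase, fell by 4.43 on the log2 scale. Ethe1, a mitochondrial sulfur dioxygenase, fell by 4.12. These 4 genes did not overlap between the genotypes, which the naming rule required, and neither did 56.8% of all genes. The 12 largest falls that the naming rule selected also held Gm5617 (-4.84), the RNA-binding protein gene Igf2bp3 (-4.23), the kinase gene Rps6ka4 (-4.09), the ribosome biogenesis gene Nop53 (-3.76), the U1 spliceosome gene Snrpa (-3.72) and the regulators Cebpe, Nfkbia and Id1. All 12 stayed called after the GC and length correction and after leaving out any 1 of the 8 libraries.

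Eif1, a factor that selects the translation start codon, was chosen after its values were seen, because 2 of the largest falls against all other genotypes were near copies of it. Eif1 was at 10.00 and 9.97 log2 CPM in wild type and 6.26 and 6.40 in Nr4a1 KO (-3.66 ± 0.18, adjusted p = 1.61e-05). The processed pseudogenes Gm10157 (-4.93) and Gm6155 (-4.38) matched Eif1 transcripts over 343 and 341 bases with 98.3% and 96.2% identity. Reads of such copies can be split by the counting, so the pseudogene values are uncertain.

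Among 32 tested myeloid transcription factors, 4 (12.5%) fell and 2 (6.25%) rose, shares near the 11.2% and 3.94% of all genes, with a list median of 0.00 beside 0.01 over all genes. Cebpe, the C/EBP factor of granulocyte maturation (chromosome 14, 54710360 to 54712174), was at 4.88 and 4.97 log2 CPM in wild type and at 1.25 and 0.93 in Nr4a1 KO, a 14.2-fold fall (-3.83 ± 0.19, adjusted p = 1.61e-05). Id1, an inhibitor of basic helix-loop-helix factors (chromosome 2, 152736251 to 152737410), went from 6.20 and 5.85 to 2.27 and 2.36 (-3.72 ± 0.18, adjusted p = 1.61e-05). Myc, the growth-promoting factor, went from 4.77 and 4.84 to 2.19 and 2.997 (-2.21 ± 0.25, adjusted p = 0.000567). Irf5, a factor of inflammatory signalling, went from 8.67 and 8.92 to 7.94 and 7.82 (-0.92 ± 0.10, adjusted p = 0.000588). The groups did not overlap in any of these 4 genes (56.8% of all genes did not), and no left-out library ended their calls.

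The rises among the factors were less firm, and each was ended by leaving out either wild-type library. Zeb2, a factor of monocyte and dendritic cell identity, rose by 0.38 ± 0.10 (adjusted p = 0.0398), and leaving out any 1 of the 8 libraries or correcting for GC content and length ended that call. Of 10 tested NR4A family members and partners, 1 fell, Nr4a1 itself. Its paralog Nr4a2 was at 1.44 and 0.94 log2 CPM in wild type and 1.24 and 2.07 in Nr4a1 KO (0.46 ± 0.34, adjusted p = 0.404).

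**Figure D3:**
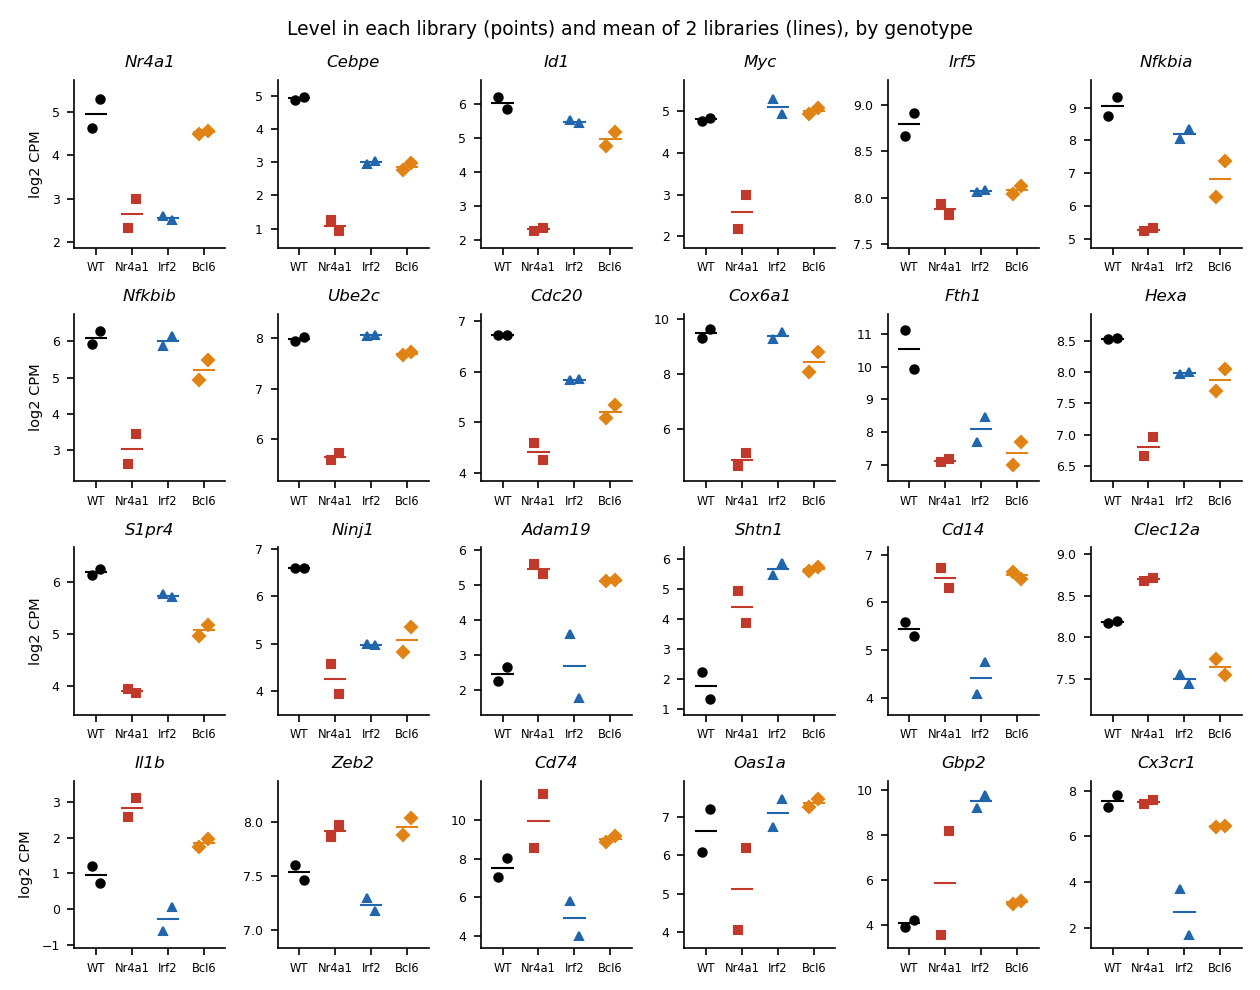
Level in log2 CPM (vertical axes, each with its own range and not starting at 0) of 24 genes in the 8 libraries, by genotype (WT, wild type; the others as Nr4a1 KO, Irf2 KO and Bcl6 cKO), with lines at the mean of 2 libraries. Cebpe, Id1, Nfkbia, Ube2c and Cox6a1 in Nr4a1 KO lie below all other libraries, and the 2 Nr4a1 KO points lie far apart for Gbp2, Cd74 and Oas1a.

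The DNA motif of Nr4a1, the NBRE (AAAGGTCA, read on both strands), was looked up in RefSeq promoter windows of GRCm38.p6, which span 250 bases before to 50 bases after a start site. Windows were matched by symbol for 8678 tested genes. The motif was in 114 of 11006 windows (1.04%) of all tested genes, in 8 of 306 windows (2.61%) of genes that rose and in 10 of 1452 windows (0.689%) of genes that fell. It stood before the start in 6 protein-coding genes that rose and 7 that fell. These counts are small, windows of 1 gene can overlap, and a match is a description of the letters and not a bound site. For the 3 such genes with the largest rises and the 2 with the largest falls the motif is shown in capitals within 30 bases, 5′ to 3′ on the strand of the gene.
H2-Eb1: gtagagcaggcTGACCTTTctatctcacag
Ccl6: ctagcccaccaTGACCTTTgccctcgcttc
Mospd1: aggcagacgtcAAAGGTCAccaccaaatga
Rab3il1: cacagagggccTGACCTTTgccaggcaggt
Uckl1: tgtgttgaggcAAAGGTCAttctcggggct

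The windows lie at chr17:34305618-34305647 (plus strand) for H2-Eb1, chr11:83593157-83593186 (minus strand) for Ccl6, chrX:53370772-53370801 (minus strand) for Mospd1, chr19:10001668-10001697 (plus strand) for Rab3il1 and chr2:181582054-181582083 (minus strand) for Uckl1. The motif begins 238, 88, 231, 46 and 99 bases before the start in that order. Ccl6, a chemokine, was at 9.53 and 9.67 log2 CPM in wild type and 10.55 and 10.23 in Nr4a1 KO (0.79 ± 0.15, adjusted p = 0.00874), a call that ended without wild type replicate 1. Uckl1, a uridine-cytidine kinase-like gene, went from 5.56 and 5.53 to 4.10 and 4.09 (-1.45 ± 0.18, adjusted p = 0.00087). Mospd1 rose by 0.75 (adjusted p = 0.0415) and Rab3il1 fell by 1.50 (adjusted p = 0.0225), and both calls ended when either wild-type library or Nr4a1 KO replicate 2 was left out. The call of Mospd1 also ended when either library labelled Irf2 KO was left out and after the GC and length correction. For comparison, a GC box (GGGCGG, both strands) was in 62% of all windows, 56.2% of those of genes that rose and 66.4% of those of genes that fell.

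Of 24 tested NF-kB and inflammatory genes, 5 (20.8%) fell and 3 (12.5%) rose, with a median of -0.02. The 5 that fell were 2 inhibitor genes, 2 subunit genes and the target gene Sod2. Nfkbia, the inhibitor I-kappa-B alpha (chromosome 12, 55489410 to 55492647), was at 8.76 and 9.34 log2 CPM in wild type and at 5.25 and 5.32 in Nr4a1 KO, a 13.6-fold fall (-3.76 ± 0.32, adjusted p = 0.00011). Nfkbib, the inhibitor I-kappa-B beta, went from 5.91 and 6.27 to 2.64 and 3.44 (-3.05 ± 0.28, adjusted p = 0.000178). Sod2, a mitochondrial superoxide dismutase induced by NF-kB, went from 6.65 and 6.39 to 5.19 and 5.18 (-1.34 ± 0.15, adjusted p = 0.000569). Nfkb2 (-1.06) and Rela (-0.69), which code for NF-kB subunits, also fell, but neither was called after the GC and length correction. No left-out library ended these 5 calls.

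The 3 genes of the list that rose were Il1b, Cd14 and Tlr4, a cytokine and the lipopolysaccharide co-receptor and receptor. Il1b was at 1.21 and 0.72 log2 CPM in wild type and at 2.57 and 3.11 in Nr4a1 KO (1.87 ± 0.35, adjusted p = 0.00776). Cd14 went from 5.58 and 5.29 to 6.72 and 6.31 (1.08 ± 0.23, adjusted p = 0.0139), and Tlr4 rose by 0.88 ± 0.21 (adjusted p = 0.0257). The groups did not overlap in these genes, nor in 56.8% of all genes. Without wild type replicate 2 none of the 3 was called, Cd14 was also not called without Nr4a1 KO replicate 1, and Tlr4 was not called without wild type replicate 1, without Nr4a1 KO replicate 2 or after the GC and length correction. In the inflammasome and pyroptosis list, Ninj1, the mediator of plasma membrane rupture, fell by 2.34 ± 0.23 (adjusted p = 0.000227), and Casp1 rose by 0.76, a call that ended after the GC and length correction and without any 1 of the libraries except Nr4a1 KO replicate 1.

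Genes of the G2 and M phases of the cell cycle were lower in Nr4a1 KO. Of 30 tested, 14 (46.7%) fell, where 11.2% of all genes did, and none rose. All 30 had a negative log2 fold change, with a median of -0.45. The median stayed negative after centring (-0.32), quantile normalization (-0.32) and the GC and length correction (-0.42), with 10, 11 and 12 falls. Leaving out single libraries gave 9 falls without wild type replicate 1 and 10 without wild type replicate 2 or Nr4a1 KO replicate 2, and up to 16 in the other fits. The calls of 9 genes were ended by no left-out library.

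The 3 steepest falls of this group were in genes of the anaphase and of chromosome segregation. Cdca8, the borealin subunit of the chromosomal passenger complex, was at 8.55 and 8.56 log2 CPM in wild type and at 6.005 and 6.34 in Nr4a1 KO (-2.38 ± 0.12, adjusted p = 1.61e-05). Ube2c, the ubiquitin-conjugating enzyme of the anaphase-promoting complex, went from 7.95 and 8.03 to 5.58 and 5.71 (-2.34 ± 0.09, adjusted p = 1.61e-05). Cdc20, an activator of that complex, went from 6.73 and 6.72 to 4.58 and 4.25 (-2.31 ± 0.14, adjusted p = 2.43e-05). None of these values overlapped between the genotypes, which was also so for 56.8% of all genes. Ccnb2, a mitotic cyclin, fell by 1.49 ± 0.18 (adjusted p = 0.000782), while the other B cyclin Ccnb1 (-0.45, adjusted p = 0.0545) and the kinase gene Cdk1 (-0.19, adjusted p = 0.268) were not called. The falls within the group were thus of unequal size. Against wild type, Cdc20 also fell in the libraries labelled Irf2 KO (-0.88) and Bcl6 cKO (-1.52). Ccnb2 did so too (-0.68 and -0.90), while Cdca8 and Ube2c were called in neither.

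Of 30 S phase genes, 5 (16.7%) fell, where 11.2% of all genes did, and none rose, with a median of -0.25. The genes that fell were the ribonucleotide reductase gene Rrm2 (-0.83), the helicase genes Mcm2 (-0.64) and Mcm5 (-0.42), the licensing factor gene Cdt1 (-0.79) and the histone mRNA-binding gene Slbp (-0.48). Each of these 5 calls ended without 1 of the wild-type libraries: that of Rrm2 without replicate 1, those of Mcm2, Mcm5 and Cdt1 without replicate 2 (Cdt1 also without Nr4a1 KO replicate 1), and that of Slbp without replicate 1 or 2. Mcm5 and Cdt1 were not called after the GC and length correction, nor Slbp after centring. With either wild-type library left out 3 genes of the list fell, and 4, 5 and 3 fell after centring, quantile normalization and the GC and length correction. Among D-type cyclins and CDK inhibitors, Ccnd3 fell from 8.01 and 7.32 log2 CPM to 6.81 and 6.53 (-0.99 ± 0.21, adjusted p = 0.014) and Cdkn1a by 0.70, and neither was called without wild type replicate 1 or after the GC and length correction. The call of Ccnd3 also ended without Nr4a1 KO replicate 2, and that of Cdkn1a without wild type replicate 2 or Nr4a1 KO replicate 1 and after centring.

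Genes of the nonclassical monocyte showed a partial pattern. Of 22 tested, 6 (27.3%) fell, where 11.2% of all genes did, and none rose, with a median of -0.20. The counts of falls in this list include Nr4a1 itself, the targeted gene, here and in the other settings below. Its fall follows from the genotype, so the share overstates the change in the other genes of the list. The median was -0.08 after centring and -0.10 after quantile normalization, with 5 falls and 1 rise in each, and 0.03 with 6 falls and 2 rises without Nr4a1 KO replicate 1. Besides Nr4a1, the genes that fell in the main test were Ace, Pparg, Treml4, Pou2f2 and Pglyrp1. Ace, the angiotensin-converting enzyme expressed by patrolling monocytes, was at 1.21 and 3.30 log2 CPM in wild type and at -2.28 and -0.65 in Nr4a1 KO (-3.72 ± 0.71, adjusted p = 0.0089). Pparg, a lipid-sensing nuclear receptor, went from 1.36 and 0.90 to -0.74 and -1.16 (-2.08 ± 0.39, adjusted p = 0.00799). The groups did not overlap in either gene, nor in 56.8% of all genes. The call of Ace ended without wild type replicate 2 and that of Pparg without wild type replicate 1. The calls of Treml4 (-0.92), Pou2f2 (-0.72) and Pglyrp1 (-0.65) ended when either wild-type library or Nr4a1 KO replicate 2 was left out, that of Treml4 also without Nr4a1 KO replicate 1, and that of Pglyrp1 also without any 1 library of the other 2 knockouts and after centring or quantile normalization. Without wild type replicate 1 or 2, 2 of the 22 genes fell, and the median was -0.32 or -0.08. After the GC and length correction 4 fell and 1 rose, Treml4 and Pglyrp1 were not called, and the median was 0.01. Cx3cr1, the fractalkine receptor that is high in nonclassical cells, was at 7.27 and 7.82 in wild type and 7.42 and 7.57 in Nr4a1 KO, overlapping between the groups (-0.05 ± 0.51, adjusted p = 0.96), and the sign of its difference turned under centring (0.08), quantile normalization (0.05) and the GC and length correction (0.04).

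Of 26 genes of the classical monocyte, 3 (11.5%) rose, where 3.94% of all genes did, and none fell, with a median of 0.14. The chemokine receptor gene Ccr2, which is needed for exit from the marrow, was at 10.34 and 10.07 log2 CPM in wild type and 10.66 and 10.75 in Nr4a1 KO (0.50 ± 0.13, adjusted p = 0.0349). The calcium-binding protein gene S100a4 rose by 0.70 and the leukotriene pathway gene Alox5ap by 0.40. The call of S100a4 ended without wild type replicate 1 or Nr4a1 KO replicate 2. That of Ccr2 ended without wild type replicate 2 or any 1 library of Nr4a1 KO or Bcl6 cKO, and that of Alox5ap without any 1 library of wild type or Bcl6 cKO or without Nr4a1 KO replicate 1. S100a4 and Ccr2 were not called after the GC and length correction, and 7 genes of the list were called higher after centring. Ly6c2, the gene of the surface marker that names these cells, was at 11.87 and 12.22 in wild type and 11.49 and 12.33 in Nr4a1 KO, an overlap of the groups (-0.13 ± 0.25, adjusted p = 0.764).

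Receptors for migration and genes of granules held changes in both directions. S1pr4, a sphingosine 1-phosphate receptor, was at 6.13 and 6.25 log2 CPM in wild type and at 3.93 and 3.86 in Nr4a1 KO (-2.30 ± 0.12, adjusted p = 1.78e-05), and Selplg, the P-selectin ligand, fell by 0.62 ± 0.12 (adjusted p = 0.00776). These were the 2 falls among 19 chemokine receptor and adhesion genes (10.5%, where 11.2% of all genes fell), beside the rise of Ccr2. The list median was 0.06. Of 13 primary granule and early myeloid genes, Cd93, Ctsg and Ms4a3 rose and Cebpe and Fcnb fell. Cd93, a receptor of early progenitors and monocytes, rose by 0.70 ± 0.12 (adjusted p = 0.0049), and no left-out library ended that call. The calls of the granule protease gene Ctsg (0.66), of Ms4a3 (1.61) and of the ficolin gene Fcnb (-0.66) ended when either wild-type library or Nr4a1 KO replicate 2 was left out, and those of Ms4a3 and Fcnb also when either library labelled Bcl6 cKO was. Fcnb was not called after centring, quantile normalization or the GC and length correction.

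Of 28 Fc and inhibitory receptor genes, 2 (7.14%) rose and 1 (3.57%) fell, with a median of 0.12. Clec12a, an inhibitory lectin receptor, was at 8.17 and 8.19 log2 CPM in wild type and 8.68 and 8.72 in Nr4a1 KO (0.51 ± 0.10, adjusted p = 0.00882). Its groups did not overlap, as for 56.8% of all genes, and no left-out library ended the call. Fcgr3, an activating Fc receptor gene, rose by 0.59, a call that ended without any 1 of the libraries except those labelled Irf2 KO. In the Notch list, Notch1 (-0.70) and Nfkbid (-0.89), by its name an NF-kB inhibitor gene, were the 2 falls among 11 genes (18.2%). Neither was called after the GC and length correction or without wild type replicate 2 or Nr4a1 KO replicate 2, nor Nfkbid without wild type replicate 1. Notch2, the receptor named in the title of the series, differed by -0.30 ± 0.15 (adjusted p = 0.225). In the Bcl2 family, Bax fell by 0.77 ± 0.10 (adjusted p = 0.00112), a call not kept after the GC and length correction, Bcl2l13 fell by 0.74 and the survival gene Mcl1 rose by 0.54, and both of these calls ended when either wild-type library or Nr4a1 KO replicate 2 was left out.

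Interferon-stimulated genes did not separate the genotypes. Of 39 tested, none was called by limma in either direction, and at an unadjusted p under 0.05 there were 2 falls and no rise. The test of limma voom and the authors' deposited table called 0 as well. Their summed level was 4332 and 6830 CPM in wild type and 2685 and 6915 in Nr4a1 KO, so the groups overlapped, and the median log2 fold change was -0.43. Without Nr4a1 KO replicate 2 the median was -1.37 with 23 falls, and without Nr4a1 KO replicate 1 it was 0.32 with 5 rises. Oas1a, an antiviral nucleotide synthetase, was at 6.10 and 7.21 log2 CPM in wild type and at 4.03 and 6.18 in Nr4a1 KO (-1.55 ± 0.62, adjusted p = 0.132). Bst2, the virus-tethering protein tetherin, differed by -0.81 ± 0.40 (adjusted p = 0.211).

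The guanylate-binding and immunity-related GTPases, which interferon-gamma induces, differed more between the 2 Nr4a1 KO libraries than between the genotypes. Their sum was 247 and 373 CPM in wild type and 166 and 1578 in Nr4a1 KO. Of 14 tested, Gbp8 rose (3.52 ± 0.99, adjusted p = 0.0456), a call that ended after the GC and length correction and without any 1 of the libraries except Nr4a1 KO replicate 1. Without Nr4a1 KO replicate 1 all 14 were called higher, and without Nr4a1 KO replicate 2 there were 5 falls and no rise. Gbp2 was at 3.93 and 4.25 log2 CPM in wild type and at 3.59 and 8.18 in Nr4a1 KO (1.80 ± 1.12, adjusted p = 0.321).

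MHC class II genes summed to 2822 and 6514 CPM in Nr4a1 KO against 2173 and 2720 in wild type, without overlap but by a narrow margin. Of 11 tested, 10 were higher in replicate 2 than in replicate 1 in Nr4a1 KO and also 10 in wild type. The medians of these differences were 0.86 and 0.45. H2-DMb1 and H2-Eb1 rose (18.2% of the list, beside 3.94% of all genes), with a median of 0.37 for the list. H2-Eb1, a beta chain of class II, was at 0.85 and 3.12 log2 CPM in wild type and at 3.97 and 6.38 in Nr4a1 KO (3.19 ± 0.82, adjusted p = 0.0333). Cd74, the invariant chain, was at 7.06 and 8.00 against 8.53 and 11.33 (2.40 ± 0.84, adjusted p = 0.0902), and Ciita, the transactivator of class II, differed by 2.42 ± 0.79 (adjusted p = 0.0763). Without Nr4a1 KO replicate 1 there were 6 rises, and without Nr4a1 KO replicate 2 or wild type replicate 1 there was none. The call of H2-Eb1 also ended without any 1 library of the other 2 knockouts. B cell genes, a class of cells that carries class II, summed to 678 and 1039 CPM in Nr4a1 KO against 698 and 790 in wild type, so the groups overlapped. Of the 6 tested, 2 fell and none rose, with a median of -1.24, and their part in the class II result was not tested. Of 20 MHC class I genes, H2-D1 fell (-1.57, adjusted p = 0.0457), and it was not called after centring or the GC and length correction, or without wild type replicate 1, Nr4a1 KO replicate 1 or any 1 library of the other 2 knockouts. H2 genes are similar in sequence, so their counts are uncertain.

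**Figure D4:**
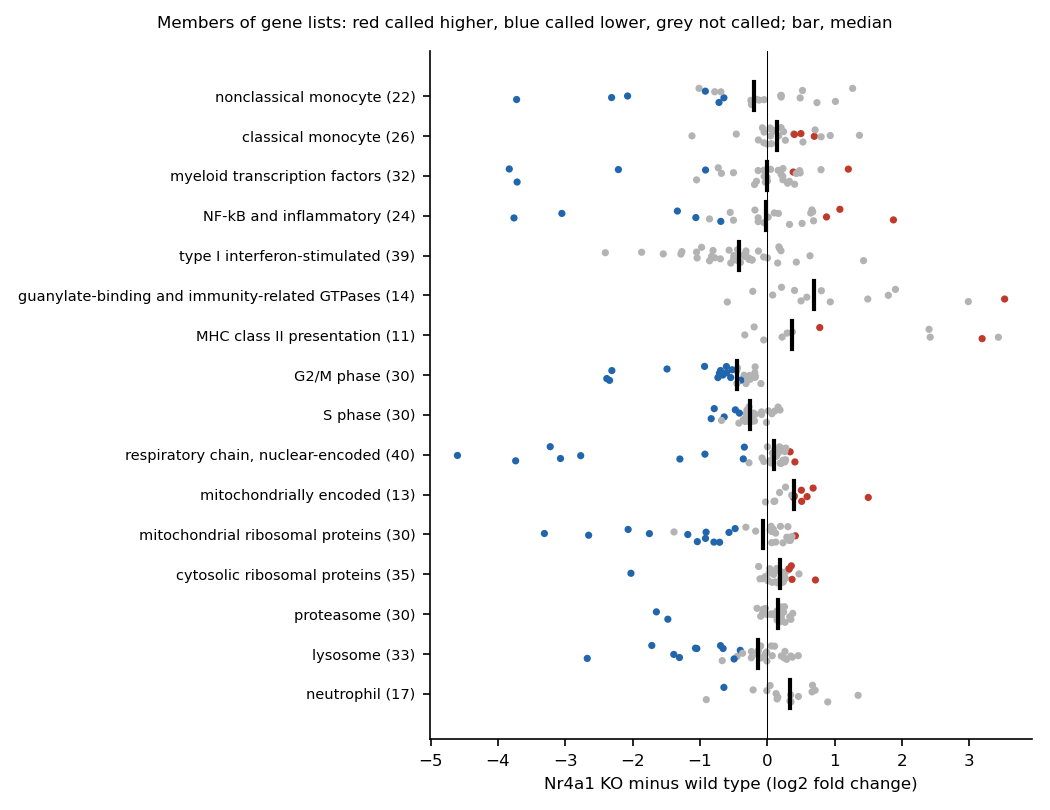
Log2 fold change of Nr4a1 KO against wild type (horizontal axis) for each tested member of 16 gene lists (rows, with the number tested), red called higher, blue called lower and grey not called, with the median as a bar. All 30 G2/M genes lie below 0, while in the respiratory chain and mitochondrial ribosome lists a few members lie far below a group near 0.

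Nuclear-encoded respiratory chain genes were split. Of 40 tested, 9 (22.5%) fell and 2 (5%) rose, while the median was 0.10 and the 29 genes not called lay between -0.27 and 0.27. The counts depended on the scaling, with 8 rises and 7 falls after centring, 7 and 8 after quantile normalization and 7 and 7 after the GC and length correction. Beside Cox6a1 and Cox8a, the falls included Cox5b, a further subunit of cytochrome c oxidase (from 8.20 and 7.75 log2 CPM to 4.69 and 4.81), Uqcrc1, a core protein of complex III (from 9.83 and 9.96 to 6.55 and 7.11), and Atp5d, a subunit of ATP synthase (from 7.98 and 7.60 to 4.93 and 5.11). Their log2 fold changes were -3.22 ± 0.23, -3.07 ± 0.17 and -2.77 ± 0.19, with adjusted p of 4.85e-05, 2.02e-05 and 4.18e-05. None of these overlapped between the genotypes, which also held for 56.8% of all genes. The ATP synthase genes Atp5o (0.41) and Atp5e (0.34) rose, and both calls ended without wild type replicate 2 or Nr4a1 KO replicate 2, that of Atp5o also after the GC and length correction and that of Atp5e also without wild type replicate 1 or any 1 library of the other 2 knockouts. Without wild type replicate 1 there were 6 falls.

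The mitochondrial ribosome had the same kind of split, with 40% of its tested genes called lower and 3.33% called higher. Of 30 tested genes 12 fell and 1 rose, with a median of -0.07 (0.06 after centring, 0.01 after quantile normalization and 0.11 after the GC and length correction), and 8 of the falls were ended by no left-out library. In these 3 settings 4, 6 and 3 genes rose and 10 fell in each. Mrpl54 (-3.31 ± 0.27, adjusted p = 9.02e-05), Mrpl12 (-2.65 ± 0.14, adjusted p = 1.69e-05) and Mrpl34 (-1.75 ± 0.13, adjusted p = 6.4e-05), which code for proteins of the large subunit, fell. Mrpl41 rose by 0.42, a call that ended when either wild-type library or Nr4a1 KO replicate 2 was left out. Of the 13 genes encoded by mitochondrial DNA 7 rose and none fell, with a median of 0.39, among them mt-Co2 (0.59, adjusted p = 0.00889) and mt-Atp8 (1.50, adjusted p = 0.00912). Without wild type replicate 2 there were 2 rises. These genes have a median GC content of 37.1%, and after the GC and length correction none was called higher, 1 was called lower and the median was 0.00. Mitochondrial transcripts made up 0.569% and 0.576% of reads in wild type and 0.778% and 0.658% in Nr4a1 KO.

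Genes of cytosolic ribosomal proteins and the proteasome mostly had small positive differences. Of 35 ribosomal protein genes 5 (14.3%) rose and 1 (2.86%) fell, beside 3.94% and 11.2% of all genes. Their median was 0.18, and 30 had a positive log2 fold change. The count of rises was 18 after centring, 13 after quantile normalization and 14 after the GC and length correction, beside 9.22%, 8.4% and 4.64% of all genes. Without single libraries it was 1 to 4, with 1 without wild type replicate 1 or 2 and 2 without any 1 library of Nr4a1 KO or Irf2 KO. Rpl35 rose by 0.71 ± 0.10 (adjusted p = 0.00148) and no left-out library ended its call. Rpl13 fell from 10.97 and 9.13 log2 CPM to 7.83 and 8.21 (-2.03 ± 0.46, adjusted p = 0.0195), a call that ended without Nr4a1 KO replicate 1. Of 30 proteasome genes, Psmd8 (-1.65 ± 0.14, adjusted p = 9.65e-05) and Psmb4 (-1.48 ± 0.18, adjusted p = 0.00087) fell and none rose, with a median of 0.16. A positive log2 fold change was seen in 22 of the 30. Rises numbered 7 after centring, 3 after quantile normalization and 4 after the GC and length correction. Many ribosomal protein genes have processed pseudogenes that can take part of their reads.

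Of 33 lysosomal genes 10 fell and none rose, with a median of -0.13 (-0.01 after centring and -0.11 after quantile normalization), and 7 of the falls were ended by no left-out library. Hexa, which codes for a subunit of the lysosomal beta-hexosaminidase, was at 8.53 and 8.53 log2 CPM in wild type and at 6.66 and 6.97 in Nr4a1 KO (-1.72 ± 0.14, adjusted p = 8.21e-05). Gusb, the lysosomal glucuronidase, fell by 1.31 ± 0.10 (adjusted p = 6.6e-05), and Atp6v0d1, a subunit of the proton pump, by 1.05 ± 0.13 (adjusted p = 0.000964). The 3 genes did not overlap between the genotypes, like 56.8% of all genes. The share of the list that fell was 30.3%, beside 11.2% of all genes. After the GC and length correction 5 genes of the list were called lower and 2 higher, with a median of 0.05.

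Single genes of iron, lipid and sugar metabolism fell within lists whose medians were near 0. Fth1, the ferritin heavy chain (chromosome 19, 9980598 to 9985098), was at 11.12 and 9.94 log2 CPM in wild type and at 7.08 and 7.16 in Nr4a1 KO, a 10.6-fold fall (-3.41 ± 0.39, adjusted p = 0.000567). The light chain gene Ftl1 was at 10.97 and 11.08 in wild type and 11.03 and 10.88 in Nr4a1 KO (-0.07 ± 0.10, adjusted p = 0.669), with a sign that turned under centring (0.06), quantile normalization (0.05) and the GC and length correction (0.28). Fth1 and Steap3, an iron reductase gene (-0.73 ± 0.12, adjusted p = 0.00469), were the 2 falls among 16 ferritin and iron genes (median -0.12, and 0.01 after centring or quantile normalization). That is 12.5% of the list, where 11.2% of all genes fell. Both genes of ferritin chains share sequence with pseudogenes, so their counts are uncertain.

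Of 25 genes of LXR targets, cholesterol and lipids, 3 (12%) fell and 2 (8%) rose, with a median of -0.01. Of all genes, 11.2% fell and 3.94% rose. Nr1h2, which codes for LXR beta, a nuclear receptor for oxysterols, went from 6.80 and 7.20 log2 CPM to 4.88 and 5.30 (-1.91 ± 0.17, adjusted p = 0.000136). Srebf1 (-1.55 ± 0.18, adjusted p = 0.000651) and Srebf2 (-0.95 ± 0.17, adjusted p = 0.0076), which code for the sterol-regulated factors, fell, and Srebf2 was not called without wild type replicate 2 or after the GC and length correction. The lipoprotein lipase gene Lpl (1.10) and the cholesterol exporter gene Abcg1 (0.84) rose, and neither was called without wild type replicate 1, nor Lpl without wild type replicate 2, nor Abcg1 without Nr4a1 KO replicate 2 or any 1 library of the other 2 knockouts. Of 19 glycolysis genes 4 (21.1%) fell and none rose, with a median of -0.16 that was 0.10 after the GC and length correction. Pgam1, phosphoglycerate mutase, went from 6.67 and 6.88 to 4.68 and 4.48 (-2.19 ± 0.14, adjusted p = 3.51e-05), and the lactate exporter gene Slc16a3 fell by 1.25 ± 0.14 (adjusted p = 0.000622). The falls of Hk1 (-0.78) and Pfkl (-0.55) were not called after the GC and length correction or without wild type replicate 2, and that of Pfkl not after centring or quantile normalization or without wild type replicate 1, Nr4a1 KO replicate 2 or either library labelled Bcl6 cKO.

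In the heat shock list of 15 genes, Dnajb1, a co-chaperone gene, went from 6.49 and 6.33 log2 CPM to 4.40 and 4.70 (-1.86 ± 0.20, adjusted p = 0.000438). Hsf1, the factor that activates heat shock genes, fell by 1.50 ± 0.29 (adjusted p = 0.00868), a call that ended without wild type replicate 1. Hsp90b1, an endoplasmic reticulum chaperone gene, rose by 0.42 ± 0.09 (adjusted p = 0.0151), a call that ended without wild type replicate 2. Of 19 immediate early and AP-1 genes limma called none. At an unadjusted p under 0.05 there were 1 rise and 1 fall, and limma voom and the authors' deposited table called 0.

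The Nr4a1 KO libraries were also compared directly with the other 2 knockouts, which tests whether an effect differs between genotypes. Against the libraries labelled Irf2 KO 2850 genes (22.3%) differed, 1267 (9.94%) higher and 1583 (12.4%) lower in Nr4a1 KO. Against the libraries labelled Bcl6 cKO 733 genes (5.75%) differed, 99 (0.776%) higher and 634 (4.97%) lower. Without Irf2 KO replicate 1 or 2 the first count was 1734 or 1460, and without Bcl6 cKO replicate 1 or 2 the second was 367 or 250. In all 3 comparisons 26 genes (0.204%) were higher and 494 (3.87%) lower in Nr4a1 KO, and since the 3 use the same Nr4a1 KO libraries, these counts are no independent evidence. For the 67 genes lower by over 8-fold against wild type, the median log2 fold change was -3.41 in Nr4a1 KO, -1.46 in the libraries labelled Bcl6 cKO and -0.56 in those labelled Irf2 KO, each against the same wild-type libraries.

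Several of the large changes went beyond both other knockouts. Cox6a1 differed by -4.52 from Irf2 KO (adjusted p = 2.51e-05) and by -3.54 from the libraries with the Bcl6 cKO label (adjusted p = 0.000137). Id1 differed by -3.16 (adjusted p = 2.89e-05) and -2.65 (adjusted p = 0.00012), Cebpe by -1.91 (adjusted p = 0.000339) and -1.78 (adjusted p = 0.00113), and Myc by -2.52 (adjusted p = 0.000308) and -2.41 (adjusted p = 0.000891), in the same order, each lower in Nr4a1 KO. Against wild type, Cebpe also fell in the libraries labelled Irf2 KO (-1.93, limma adjusted p = 0.00131) and Bcl6 cKO (-2.06, limma adjusted p = 0.00238). Of the other largest falls, Igf2bp3 (-3.92 and -3.71), Ethe1 (-1.69 and -2.66), Nop53 (-0.91 and -1.63) and Rps6ka4 (-0.85 and -2.81) also fell in both. Cox6a1 (-1.06) and Id1 (-1.06) were called lower than wild type in those labelled Bcl6 cKO only, and Myc in neither. Rnls, the renalase gene, and Gm5617 and Alkbh6 were also lower in Nr4a1 KO than in each of the other 2 knockouts. Of the G2/M genes 20 of 30 were lower than in Irf2 KO, beside 12.4% of all genes. Against the libraries labelled Bcl6 cKO 4 of 30 were lower, beside 4.97% of all genes. For S phase genes these counts were 21 of 30 and 0 of 30, so that list did not go beyond both. Its median against wild type was 0.26 in Irf2 KO, -0.19 in the libraries labelled Bcl6 cKO and -0.25 in Nr4a1 KO. The G2/M medians were 0.01, -0.14 and -0.45 in the same order. Gm47021 and Sirpb1c, a signal-regulatory receptor gene (1.999 and 1.62), were higher in Nr4a1 KO than in both. The same held for Rad9b and Akap17b, whose calls against wild type ended when either wild-type library or Nr4a1 KO replicate 2 was left out, among others. The call of Sirpb1c against wild type ended without wild type replicate 1.

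Some of the changes against wild type were not called against 1 or both of the other knockouts. Igf2bp3 in Nr4a1 KO differed from Irf2 KO by -0.30 (adjusted p = 0.639) and from the libraries labelled Bcl6 cKO by -0.51 (adjusted p = 0.571), and its level was between 0.05 and 0.60 log2 CPM in those 4 libraries. Ccnd3 differed by 0.01 (adjusted p = 0.979) and 0.00 (adjusted p = 0.994), and Fth1 by -0.96 (adjusted p = 0.108) and -0.23 (adjusted p = 0.815). Irf5 differed by -0.20 (adjusted p = 0.208) and -0.21 (adjusted p = 0.34). Adam19 was higher in Nr4a1 KO than in Irf2 KO (2.78, adjusted p = 0.00428) and differed by 0.33 (adjusted p = 0.776) from the libraries labelled Bcl6 cKO. Shtn1 was lower in Nr4a1 KO than in Irf2 KO (-1.26, adjusted p = 0.0403). Against wild type, Shtn1 also rose in the libraries labelled Irf2 KO (3.88, limma adjusted p = 0.00115) and Bcl6 cKO (3.89, limma adjusted p = 0.00238). Eps8 did so too, by 1.38 (limma adjusted p = 0.0035) and 1.34 (limma adjusted p = 0.00947). Cx3cr1 was higher in Nr4a1 KO than in Irf2 KO by 4.77 ± 0.51 (adjusted p = 0.000413), where it was at 3.72 and 1.73 log2 CPM. These p-values do not show that the genotypes act alike where they miss the threshold.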

How the data were processed

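RNA of 2 libraries per genotype was sequenced from 10 ng of total RNA as paired 150-base reads, per the labels' protocols. STAR, featureCounts of Subread, Salmon, limma and bcl2fastq are named in the submitters' processing notes, with build mm10 and no order of steps. The deposited table gave log2 CPM per library, made by the authors from reads plus 0.5 over a library total. Undoing the formula brought 100% of values within 0.01 of whole reads. That check sets the scale of each library by its lowest value, so it does not test the totals. Wild type 1 held 59063694 reads at 57.98 reads per CPM, fewer than its plain total would give. Nr4a1 KO 1 held 48579784 at 51.02. The totals thus carry a scaling beyond plain library size. The deposited log2 fold changes and p-values of the authors, per the file headers, were used only as an alternative. Its 13789 entries were reduced to 13744 genes by leaving out 45 repeats.

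Moderated two-sided tests of limma 3.58.1 (R 4.3.3) on the log2 CPM values used 4 group means over 8 libraries and a trend of the prior variance. Adjustment was by Benjamini-Hochberg over 12752 genes with a threshold of 0.05. There were 4 degrees of freedom from residuals and 4.66 from the prior. The procedure was tested on simulated data. GENCODE M21 (GRCm38) gave positions, GC content and length of 12740 genes, and RefSeq (GRCm38.p6) the promoter windows.

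The members and the 39 gene lists (679 distinct genes tested) were chosen with earlier results of these data known. Genes named are the targeted genes, the 12 largest rises and falls (called, not overlapping, mean of at least 4 CPM, called without each of the 4 libraries), up to 4 genes per list by smallest p, and the 6 largest each way against all other genotypes. The alternatives tried were no trend, no filter, a filter of 4 CPM, quantile normalization, centring, library weights, limma voom on recovered reads, only the 2 groups compared, a replicate block, a GC and length correction (splines with 5 degrees of freedom), the block with that correction, the authors' test, and each library left out, in which a lone library is assumed to vary like the others. A few genes and 1 promoter window that these rules select are not reported here. Leaving out libraries of the other genotypes was added after seeing the data. The genes outside the rule (Cdt1, Atp5e, Ccl6, Cdk1, Ly6c2, Atp5o, Mospd1, Abcg1, Rab3il1, Nfkb2, Fcnb, Zeb2, Notch2, Eif1, Mrpl41, Tlr4, Ccnb1, Ftl1, Cd14, Treml4, Cx3cr1, Cox5b and Uckl1) were chosen after their values were seen. Plots were made in Python 3.11.15 with matplotlib 3.10.9.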

Additional observations from a re-analysis of the deposited data

How the results depend on the processing

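The count for Nr4a1 KO against wild type was 1925 and was 1054 with only the 2 groups compared. Rises (502) numbered 1071 with quantile normalization, 1176 with centring, 283 with library weights, 133 with only the 2 groups and 268 in the authors' deposited table. Falls (1423) numbered 921 with only the 2 groups. Against Irf2 KO and Bcl6 cKO, 1770 and 484 genes were called with only the 2 groups. Leaving out single libraries gave 1065 to 1775 calls against wild type (120 to 466 rises, 945 to 1309 falls), 1460 to 2705 against Irf2 KO and 250 to 859 against Bcl6 cKO. With a replicate block 447 genes rose and 1414 fell, and with the block and the GC and length correction 550 rose and 986 fell. Over all genes, deviations of same-numbered libraries correlated at -0.00 to 0.18, the largest for wild type with Nr4a1 KO. The numbers were not taken as pairs in the main test, but this correlation cannot show a shift confined to some genes. Interferon-stimulated genes summed higher in replicate 2 in all 4 genotypes, and the source of that was not tested. Of the 134 genes named here, 120 were called, 66 of them with no left-out library ending the call and 91 also after the GC and length correction. Signs turned without a called value for Cx3cr1, at 0.05 with quantile normalization, 0.08 with centring, 0.04 with the GC and length correction and with the block added, and at -0.32 to 0.23 when single libraries were left out. Those of Ftl1 turned to 0.05, 0.06, 0.28 and 0.28 in the same 4 settings and lay at -0.15 to 0.01 with single libraries left out. In such fits Gbp2 ran from -0.50 to 4.09 and Ly6c2 from -0.55 to 0.28. The causes were not tested. With 2 libraries per genotype, small differences cannot be separated from the spread.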
